A study of Homo sapiens with 12 samples.

Results

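Regions of open chromatin that appeared when full-length FOXA2 was induced, compared with cells labelled wild type, were examined in U2OS, a human osteosarcoma cell line. The assay was ATAC-seq, which uses Tn5 transposase to cut accessible DNA and tag it for sequencing. The comparison used 4 of the 12 samples of the series, with 2 libraries in each group and 1 deposited peak list per library. All peaks of the 4 lists on chromosomes 1 to 22 and X were merged where they overlapped by at least 1 bp, which gave 177856 regions. A region was counted as gained when both full-length lists and neither wild-type list had a peak in it, as lost in the opposite case, and as constant when all 4 lists had one. There were 24703 gained regions, 13.9% of all, 427 lost regions, 0.240%, and 9146 constant regions, 5.14%. The other 80.7% were called in some other combination of libraries.

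The full-length group carried the genotype Tet-on FOXA2 and had received doxycycline at 500 ng/ml for 4 days. The samples labelled wild type gave no genotype and no treatment, although the protocol text shared by all samples speaks of doxycycline, so whether they received it is not known. Nothing in the labels says whether the Tet-on cells were a clone or a pool. The libraries are marked as biological replicates. A further group with FOXA2 lacking its CTD (Tet-on FOXA2dCTD, the same doxycycline treatment) and the SOX2 set were used only to ask where the gained regions were also called. The SOX2 set consists of a wild type of its own (labelled as belonging to the SOX2 cell line, with no genotype or treatment, and called the second wild type below), Tet-on SOX2 and Tet-on SOX2FOXA2CTD, both with the same doxycycline treatment.

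FOXA2 is a forkhead transcription factor of the endoderm, needed for the formation and function of liver, pancreas and lung. It is known as a pioneer factor: its winged-helix domain can bind its motif on DNA wrapped in a nucleosome, and regions around bound sites can then become accessible to other factors. U2OS cells are of mesenchymal origin, so genes of the endoderm are not part of their usual program.

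Most gained regions lay away from gene starts, and the reference promoters show the sequence at only a small part of them. The following 5 promoters overlapped gained regions. The first 4 were picked because they hold a forkhead motif, which only 6 of the 61 gained promoters of their kind do (9.84%, against 18% with the same letters read backwards), so they are examples and not typical. In LINC01992, LOC105376003, C1QTNF9 and ACSL1 the gained region had no entry in the wild-type list of the SOX2 set, and the capitals mark a match to the forkhead motif TGTTTAC or TATTTAC on either strand. ROGDI had such an entry, no forkhead match and a CpG-rich sequence, and is the contrast. All 5 were chosen after their values were seen. Each is the RefSeq promoter on GRCh38.p14, from 250 bases before to 50 bases after the listed start, in the direction of transcription:
LINC01992: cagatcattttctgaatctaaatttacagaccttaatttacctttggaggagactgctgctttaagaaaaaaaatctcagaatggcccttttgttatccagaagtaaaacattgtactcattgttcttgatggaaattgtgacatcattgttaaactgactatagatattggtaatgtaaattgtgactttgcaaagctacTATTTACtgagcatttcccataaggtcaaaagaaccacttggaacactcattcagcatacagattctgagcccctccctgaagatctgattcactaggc
LOC105376003: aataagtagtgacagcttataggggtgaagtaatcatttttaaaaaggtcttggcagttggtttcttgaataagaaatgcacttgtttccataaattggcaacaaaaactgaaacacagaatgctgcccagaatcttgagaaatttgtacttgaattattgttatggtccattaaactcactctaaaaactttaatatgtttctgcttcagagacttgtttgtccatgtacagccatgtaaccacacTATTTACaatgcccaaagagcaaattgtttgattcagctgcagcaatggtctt
C1QTNF9: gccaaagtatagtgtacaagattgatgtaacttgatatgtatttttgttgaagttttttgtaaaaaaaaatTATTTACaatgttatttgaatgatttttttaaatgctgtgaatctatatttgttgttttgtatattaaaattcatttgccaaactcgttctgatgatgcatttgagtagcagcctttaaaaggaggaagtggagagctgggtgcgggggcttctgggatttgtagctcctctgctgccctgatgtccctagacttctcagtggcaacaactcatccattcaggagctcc
ACSL1: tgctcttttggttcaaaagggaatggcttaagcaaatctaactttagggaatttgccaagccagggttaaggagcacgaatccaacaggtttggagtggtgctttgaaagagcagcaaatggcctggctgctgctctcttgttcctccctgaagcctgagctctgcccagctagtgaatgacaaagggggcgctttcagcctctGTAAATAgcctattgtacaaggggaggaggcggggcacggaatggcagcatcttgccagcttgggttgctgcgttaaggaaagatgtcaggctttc
ROGDI: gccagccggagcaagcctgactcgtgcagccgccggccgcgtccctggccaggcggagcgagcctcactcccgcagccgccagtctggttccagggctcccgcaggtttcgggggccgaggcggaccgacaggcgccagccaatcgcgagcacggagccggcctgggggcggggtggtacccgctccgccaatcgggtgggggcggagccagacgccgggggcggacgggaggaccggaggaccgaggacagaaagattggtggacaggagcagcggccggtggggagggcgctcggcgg

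The LINC01992 window is chr17:27991658-27991957 on the minus strand, with 36.0% GC and no CpG. Its fold enrichment, the authors' ratio of a peak over the background of its own library, was 4.44 in full-length replicate 1 and 10.6 in replicate 2. The LOC105376003 window is chr9:28619811-28620110 on the plus strand, with 35% GC and no CpG, and fold enrichments of 5.31 and 9.55. Both of these are non-coding genes, and the CTD deletion libraries both had a peak there too. C1QTNF9, which encodes a secreted relative of adiponectin, has its window at chr13:24306916-24307215 on the plus strand, with 36.7% GC, 2 CpG and fold enrichments of 3.31 and 5.80. ACSL1, a long-chain acyl-CoA synthetase, has its window at chr4:184808482-184808781 on the minus strand, with 51.0% GC, 5 CpG and fold enrichments of 3.72 and 5.11. The ROGDI window is chr16:4802584-4802883 on the minus strand, with 75.3% GC, 36 CpG and fold enrichments of 6.12 and 13.6. The 5 gained regions are without a peak in both wild-type libraries. With every list cut to its 19862 strongest peaks, those at LOC105376003 and ROGDI were still gained, and those at LINC01992, C1QTNF9 and ACSL1 were not. An overlap of 1 bp was enough, so a marked match need not lie inside the gained region.

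The lists were not alike in length or in how they were called, and this bears on every count that follows. The libraries labelled wild type had 19862 and 25088 peaks, and the full-length libraries had 161136 and 57946. The lowest −log10 p was 3.44 and 5.43 in wild type replicates 1 and 2, and 2.01 and 5.22 in full-length replicates 1 and 2. The lists of both second replicates had no mitochondrial peak and carry the same threshold in their peak names, and they are taken to have been called alike, which the labels do not say. Those of both first replicates had 2 mitochondrial peaks each but share neither a name stem nor a lowest −log10 p, so they are not a batch of lists called alike. In addition, peak names of wild type replicate 1 start with dc0, a stem otherwise found in the CTD deletion lists as dc4. Read depth is unknown. The counts were therefore repeated with the 19862 strongest peaks of every list by −log10 p, called lists of equal length here, and with all peaks of at least the common −log10 p of 5.43.

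The FOXA2 gene itself (chr20:22580998-22585490) went against the wild-type label. Over its middle part, a peak was present in both libraries labelled wild type, with fold enrichments of 5.19 (chr20:22581848-22582527) and 14.7 (chr20:22581827-22582860). The full-length libraries had 5.76 and 44.3 at the same place, and the CTD deletion libraries 6.94 and 7.07. Ranked by −log10 p within each list, these peaks stood at percentiles 67.2 and 98.1 in wild type replicates 1 and 2. They stood at 99.6 and 99.9 with full length, and at 98.9 and 99.8 with the CTD deletion. The wild-type list of the SOX2 set and the SOX2 list had no entry in the middle part, and their entries in the gene were chr20:22583822-22585189 and chr20:22584023-22585299. Full-length replicate 2 had a second peak at the place of those entries (chr20:22584036-22584963), with a fold enrichment of 16.4. The SOX2-FOXA2 CTD fusion had entries at both places, of which the one in the middle part (chr20:22581797-22582528) had a global IDR of 0.0241. Reads from an introduced FOXA2 sequence and from the gene of the cells cannot be told apart in these lists. Whether the cells labelled wild type carried a FOXA2 construct without induction is not known. A region that such a construct had opened before induction would not be counted as gained. The word wild type below means the libraries labelled so.

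Markers were checked by a peak within 1 kb of the gene start. Of 8 mesenchymal markers, wild type replicates 1 and 2 had a peak at 3 and 2, and full-length replicates 1 and 2 at 5 and 6, with SPARC, which encodes the matrix protein osteonectin, called in all 4. Of 6 hepatocyte markers 1, 0, 2 and 1 had a peak in the same order, and ALB and TTR had none in any library. Of 6 epithelial markers 1, 1, 3 and 1 had one, and of 5 blood markers 1, 1, 2 and 1. At equal length the mesenchymal markers had 3, 2, 2 and 3, the hepatocyte markers 1, 0, 0 and 0, the epithelial markers 1, 1, 0 and 1 and the blood markers 1 in each library, a setting added after seeing the data. For scale, 7628, 7739, 13904 and 12889 of the 34961 RefSeq promoters of 300 bp overlapped a peak in the same order. At equal length it was 7628, 6672, 7209 and 7902. A peak at a start is not expression.

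**Figure D1:**
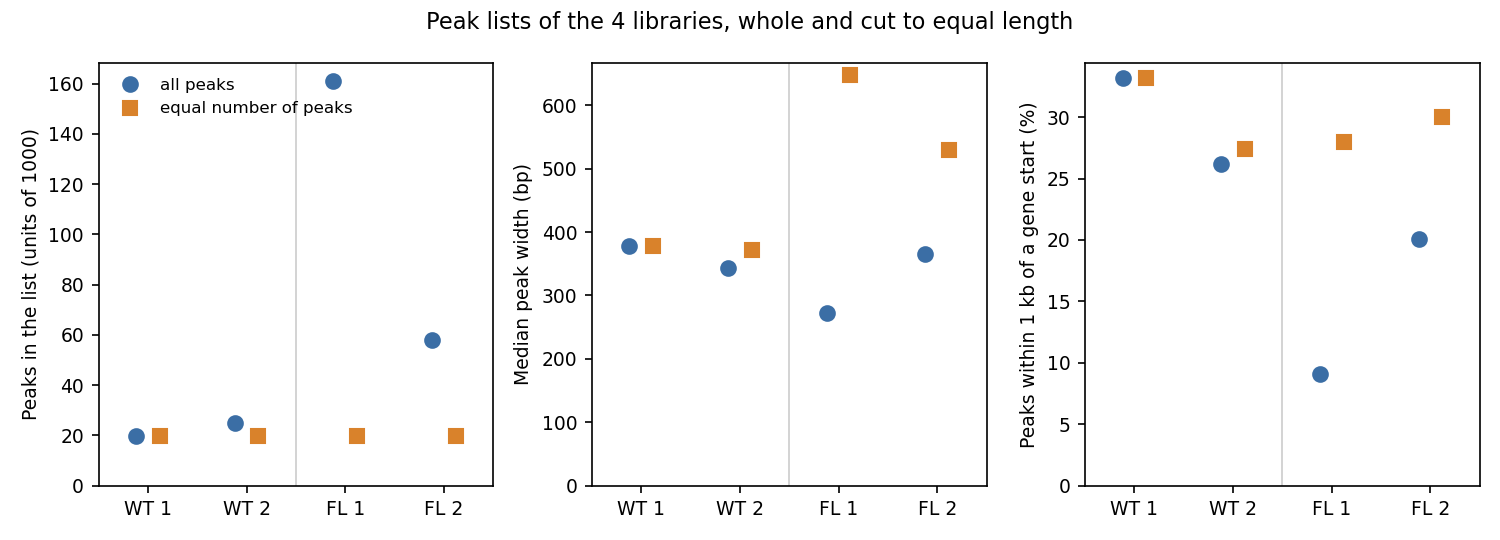
Number of peaks (in units of 1000), median peak width (bp) and share of peaks within 1 kb of a gene start (%) in wild type (WT) and full-length (FL) replicates 1 and 2. Each point is 1 library, circles for the whole list and squares for the 19862 strongest peaks; the full-length lists have narrower or similar peaks as a whole and wider peaks at equal length.

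At equal list length the peaks with full-length FOXA2 were wider than those of wild type, while the other settings did not separate the groups. The cut to equal length kept every peak of wild type replicate 1 but only the strongest part of each full-length list. Its part in the widths was not tested. At equal length the median width was 378 and 372 bp in wild type replicates 1 and 2, and 648 and 530 bp in full-length replicates 1 and 2. The groups did not overlap, and the mean difference was 214 bp, with SDs of 4.24 bp for wild type and 83.4 bp for full length (n = 2 each, exact permutation p = 0.333, two-sided, the smallest this design allows). In the whole lists the widths were 378, 343, 273 and 366 bp in the same order and the groups overlapped. At the common −log10 p of 5.43 they were 415, 343, 574 and 366 bp, and the groups overlapped too (exact permutation p = 0.667, n = 2 each). The share of peaks within 1 kb of a gene start went from 33.2% and 26.2% in wild type to 9.05% and 20.1% with full length, without overlap (exact permutation p = 0.333, n = 2 each). At equal length it was 33.2% and 27.4% against 28.0% and 30.0%, and the groups overlapped (exact permutation p = 1.00, n = 2 each). At the common −log10 p it was 35.2% and 26.2% against 21.9% and 20.1%, without overlap (exact permutation p = 0.333, n = 2 each). The plot of the libraries shows these values.

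The gain was larger in number than the loss, by an amount that depended on list length. With all peaks 24703 regions were gained and 427 lost. At the common −log10 p of 5.43 it was 12920 of 74485 regions gained, 17.3%, and 837 lost, 1.12%. With lists of equal length 3845 of 43472 regions were gained, 8.84%, and 2191 lost, 5.04%, with 4886 constant. At that length 7952 and 5424 regions were called only in wild type replicate 1 or only in replicate 2. For full-length replicates 1 and 2 these numbers were 5869 and 4201. How far the 2 lists of a group share regions enters the counts of gained and lost regions, and its part was not tested. Of the 24703 gained regions 3417, 13.8%, were also gained at equal length, and of the 427 lost regions 321, 75.2%, were also lost there. Between the second replicates alone, whose lists are taken, but not known, to have been called alike, 38392 regions were gained and 5230 lost. Between the first replicates alone, whose thresholds differ, it was 146098 and 4987. Without full-length replicate 2 the gain was 136794 regions, and without wild type replicate 1 or 2 the loss was 3265 or 3825. Full-length replicate 1 alone had 110189 regions that no other library had, and replicate 2 alone had 9962. Among gained regions the median fold enrichment was 4.21 in replicate 1 and 6.48 in replicate 2, below the 5.08 and 9.55 of constant regions in the same libraries.

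The strongest gained regions lay in or near a varied set of genes and were mostly far from any start. The first was chr18:39192263-39193180, 918 bp wide, with fold enrichments of 17.3 and 47.0 in full-length replicates 1 and 2, and 1418 kb from the nearest start of a protein-coding gene. It was called in both CTD deletion libraries and in no list of the SOX2 set. The second, chr8:20864658-20865327, had 12.1 and 41.6 and lay 561 kb from LZTS1, which encodes a leucine zipper protein. The third, chr6:166287752-166289111, had 9.09 and 36.8 and lay 19.3 kb from PRR18. The fourth, chr12:81927130-81928887, had 8.45 and 31.4, at 168 kb from PPFIA2, which encodes a liprin of the presynaptic active zone. All of these are more than 8-fold over background in both libraries and without a peak in either wild-type list.

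Of the 12 strongest gained regions, 3 were within 20 kb of a start, and 2 lay inside a protein-coding gene. These 2 were chr1:49947799-49948672 in AGBL4, a carboxypeptidase that removes glutamates from tubulin, with fold enrichments of 9.18 and 32.4, and chr6:56097548-56098721 in COL21A1, a fibril-associated collagen, with 6.87 and 38.2. A region 7.18 kb from SNX10, a sorting nexin that osteoclasts need, had 9.57 and 24.2 (chr7:26283515-26284679). The remaining named ones were next to KCTD8, an auxiliary subunit of GABA-B receptors, KHDRBS2, an RNA-binding protein, PRIM2, a subunit of DNA primase, LOC124906892 and MRPL32, a protein of the mitochondrial ribosome, at distances from 71.9 to 1352 kb. The regions next to KHDRBS2 (chr6:60933249-60934106, 10.2 and 28.6) and PRIM2 (chr6:58178646-58179772, 7.47 and 26.3) lie to either side of the centromere of chromosome 6.

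CTD deletion replicate 2 had a peak at 11 of these 12 regions and replicate 1 at 7. Over all 3845 regions gained at equal length, the whole lists of replicates 2 and 1 had a peak at 93.4% and 81.6%. The region next to KHDRBS2 was the only one of the 12 called in none of the 5 lists of other groups. The region next to KCTD8 (chr4:43757000-43759257, 2258 bp, 8.04 and 29.3) was the only one with an entry in the wild-type list of the SOX2 set. It was called in all 5 lists.

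The named lost regions had lower fold enrichments than the named gained ones in replicate 2 of each group, while the ranges overlapped in replicate 1. Over all lost regions the medians were 5.22 and 5.61 in wild type replicates 1 and 2. Over all gained regions they were 4.21 and 6.48 in full-length replicates 1 and 2. These values come from different libraries, each over its own background. The strongest lost region was chr2:217370311-217371119, 479 kb from TNS1, which encodes tensin of focal adhesions, with fold enrichments of 6.58 and 9.04 in wild type replicates 1 and 2. The next, chr8:52764185-52764811, lay 49.8 kb from RB1CC1, an autophagy gene, with 7.35 and 8.11. The others named were at 99.4 kb from CDH8, 82.8 kb from the start of CRIM1 and inside that gene, 70.2 kb from CYRIA and 15.4 kb from CHST2, with fold enrichments from 6.60 to 7.77 in replicate 1 and 7.48 to 8.11 in replicate 2. All 6 had a peak in both CTD deletion libraries and an entry in each list of the SOX2 set. Their absence from the full-length lists is the rule that chose them. Over all 427 lost regions 65.6% and 77.0% had a peak in CTD deletion replicates 1 and 2, and 96.0%, 87.8% and 92.5% an entry in the lists of the second wild type, SOX2 and the fusion.

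Gained regions were far from gene starts compared with constant ones. Within 1 kb of a start lay 10.7% of gained regions (Wilson 95% interval 10.4 to 11.1, counting error only, as for all intervals here), 51.3% of constant and 1.64% of lost regions. More than 50 kb from any start lay 51.6%, 28.3% and 59.5%, and the median distance of gained regions was 54.2 kb. Inside a protein-coding gene lay 49.7% of gained, 65.6% of constant and 42.4% of lost regions. With lists of equal length 8.19% of gained regions (7.37 to 9.10), 62.2% of constant and 11.1% of lost regions (9.89 to 12.5) were within 1 kb. Gained and lost regions are therefore in the reverse order at equal length, and both are well below the constant ones.

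**Figure D2:**
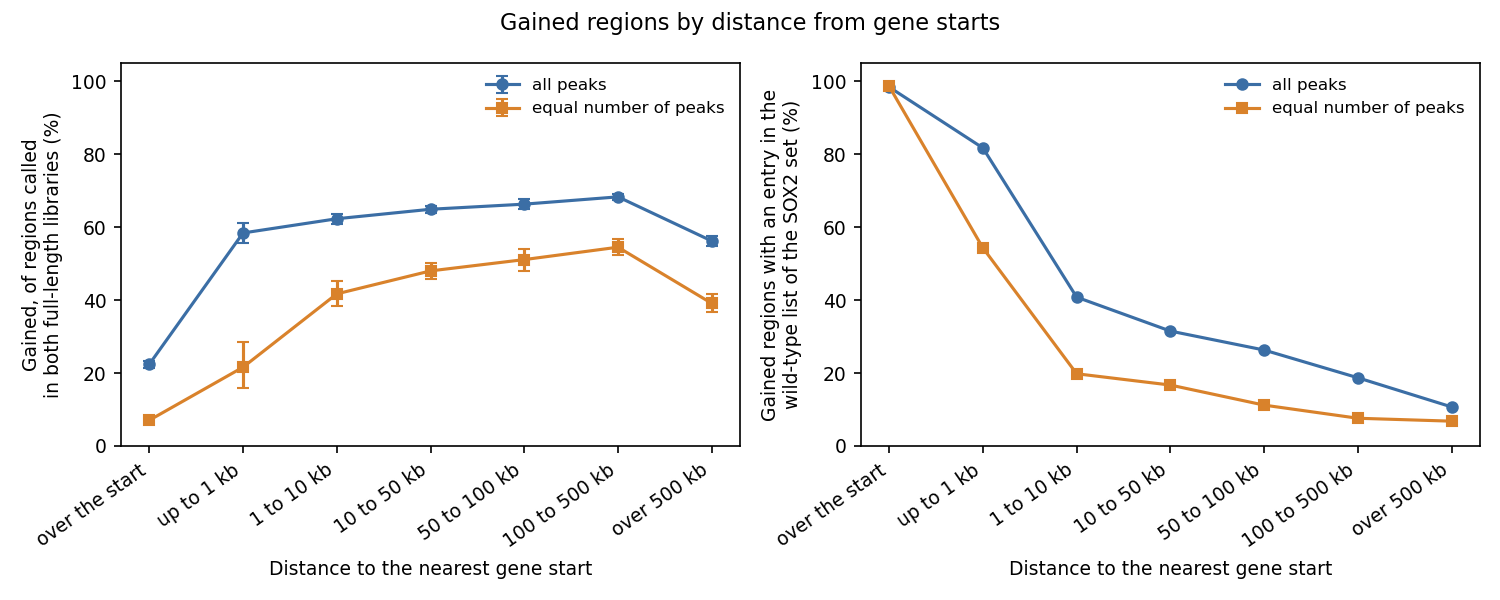
Left, share (%) of the regions called in both full-length libraries that were gained, by distance to the nearest gene start, with Wilson 95% intervals; right, share (%) of gained regions with an entry in the wild-type list of the SOX2 set. The left curve goes from 22.4% over the start to 68.3% at 100 to 500 kb with all peaks, and the right curve from 98.4% to 10.7% over all classes.

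The share of regions that counted as gained, out of those called in both full-length libraries, was lowest over gene starts. It was 22.4% for regions over a start, 58.4% up to 1 kb away, 62.3% at 1 to 10 kb, 64.9% at 10 to 50 kb, 66.3% at 50 to 100 kb, 68.3% at 100 to 500 kb and 56.2% beyond 500 kb. With lists of equal length the classes had 7.05%, 21.6%, 41.7%, 48.0%, 51.1%, 54.5% and 39.1%. Both orders go up to 500 kb and are lower in the last class, where 18.3% and 38.7% of the regions were constant. The plot by distance shows both.

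Gained regions near gene starts had mostly been called in the wild-type cells of the SOX2 set, and those far from starts had not. Over a start, 98.4% of the gained regions had an entry in that list, against 40.8% at 1 to 10 kb and 10.7% beyond 500 kb. Taken at 1 kb, the shares were 93.9% within (93.0 to 94.8) and 25.4% beyond (24.8 to 26). With lists of equal length, regions over a start had 98.6% and regions beyond 500 kb 6.80%. In all, 8092 gained regions, 32.8%, had an entry there, and 16611, 67.2%, had none. The 16611 regions were within 1 kb of a start in 0.969% of cases and more than 50 kb away in 62.2%, against 30.8% and 29.9% of the 8092. At an IDR (irreproducible discovery rate) of at most 0.05 the wild-type list of the SOX2 set held 20.9% of gained regions. This list has 1 value for its group and no spread between replicates.

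**Figure D3:**
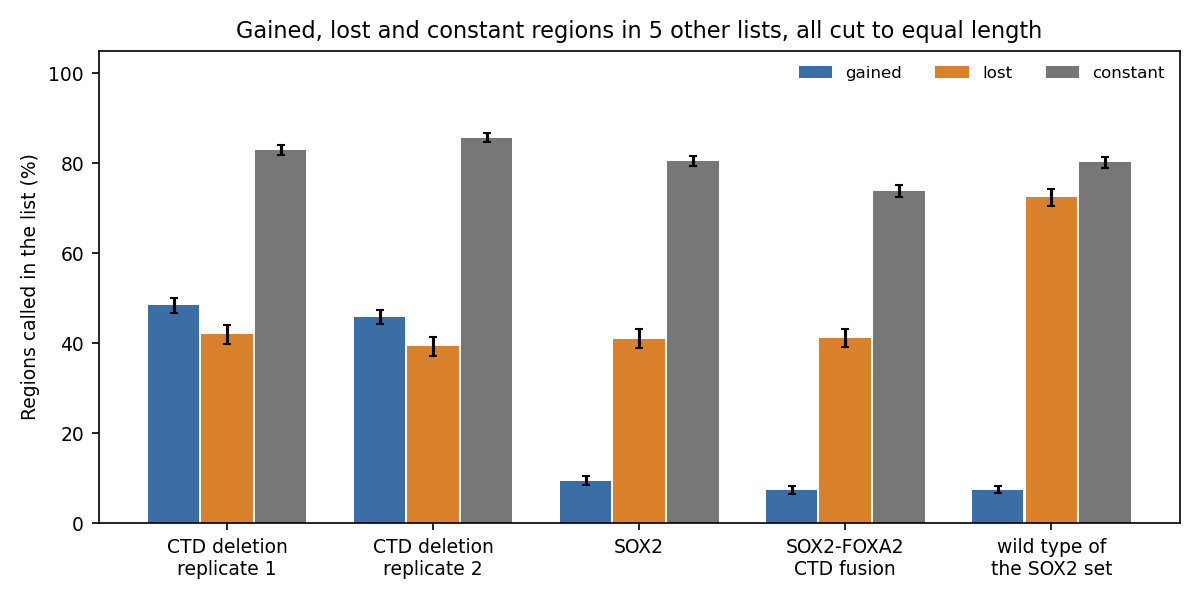
Share (%) of gained, lost and constant regions that had a peak in the 5 other lists, with all lists cut to their 19862 strongest peaks. Bars are shares and error bars Wilson 95% intervals; gained regions are at 48.4% and 45.9% in the CTD deletion libraries and below 10% in the SOX2 set.

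Among lists of equal length, gained regions more than 1 kb from a start had a peak in the CTD deletion libraries more often than in the SOX2 set, and those within 1 kb did not show this. Over all 3845 gained regions, 48.4% (46.8 to 50.0) and 45.9% (44.3 to 47.4) had a peak in CTD deletion replicates 1 and 2. The SOX2 list had 9.44%, the SOX2-FOXA2 CTD fusion 7.31% and the wild type of the SOX2 set 7.41%. For the 3530 regions beyond 1 kb the shares were 51.0% and 45.8% with the CTD deletion, 4.19% with SOX2, 4.28% with the fusion and 2.75% in the second wild type. For the 315 regions within 1 kb they were 20% and 46.0%, 68.3%, 41.3% and 59.7% in the same order. Constant regions had between 73.9% and 85.7% in the 5 lists. Lost regions had 42.0% and 39.3% in the CTD deletion libraries, 41.0% with SOX2, 41.2% with the fusion and 72.4% in the wild type of the SOX2 set. Cutting all lists, those of the other groups included, was an alternative added after the data had been seen. With whole lists, CTD deletion replicates 1 and 2 had a peak at 53.6% and 74.8% of the 24703 gained regions. A gained region has no wild-type peak by definition, so a CTD deletion peak in it is also read against the same wild-type libraries. These shares therefore rest on shared controls and are given as a description, with nothing drawn from them on how alike the constructs are.

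**Figure D4:**
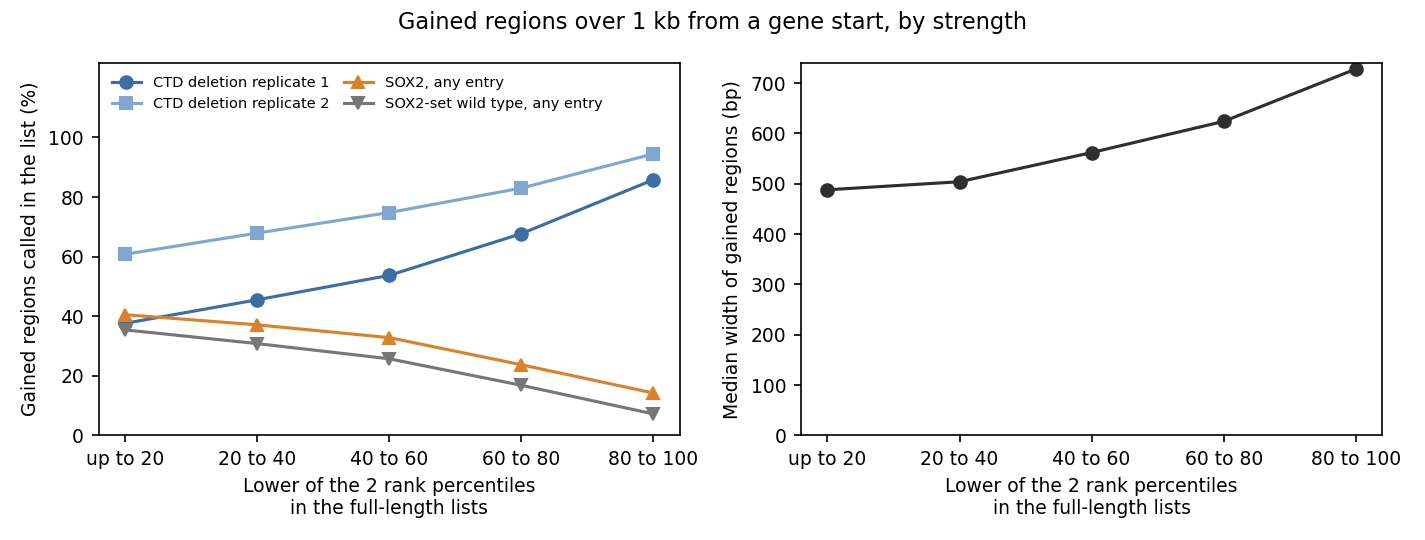
Gained regions more than 1 kb from a gene start, in classes by the lower of their 2 rank percentiles by −log10 p in the full-length lists. Left, share (%) with a peak or entry in 4 other lists; right, median width (bp), which goes from 488 to 728 bp.

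Stronger gained regions were wider and more often called with the CTD deletion, and less often in wild-type cells of the SOX2 set. Regions were ranked by −log10 p within each full-length list, and the lower of the 2 percentiles was taken. From the class up to 20 to the class 80 to 100, with 5428 and 2343 regions, the share called in CTD deletion replicate 1 went from 37.3% to 85.1%, and in replicate 2 from 62.2% to 94.6%. The share with an entry in the wild-type list of the SOX2 set went from 42.3% to 10.0%. Median width went from 493 to 728 bp, and the share within 1 kb of a start from 11.8% to 3.84%. Restricted to regions beyond 1 kb the first class and the last had 35.4% and 7.19% in that wild-type list, and 37.6% and 85.8% in CTD deletion replicate 1. A wider region can overlap a peak more easily, and the part of width in these shares was not tested.

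Gained regions had a median width of 567 bp (quartiles 463 and 695), lost regions 466 bp and constant regions 855 bp. At equal length the medians were 716, 520 and 930 bp. A merged region is at least as wide as its widest peak.

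Gained regions were mostly single. Another gained region lay within 10 kb of 18.1% of them with all peaks, and of 2.70% at equal length. For lost regions the shares were 1.41% and 3.88%. The sets differ in number, which enters these shares. With the strongest gained regions at equal length cut to 2191, the number lost there, the shares were 1.73% for gained and 3.88% for lost regions. Gained regions were thus not the more clustered ones at equal numbers. When gained regions at gaps of at most 10 kb were linked, 20221 stayed alone, 1899 chains had 2 regions, 201 had 3, 14 had 4 and 5 had 5 regions.

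The 5 longest chains spanned 21.7 to 29.0 kb. On chromosome 10 (63147792 to 63172659) the chain overlapped NRBF2, an autophagy gene, and JMJD1C, a relative of histone demethylases, with fold enrichments from 2.76 to 5.08 in replicate 1 and 5.45 to 7.50 in replicate 2. On chromosome 17 (32127293 to 32149852) it overlapped RHOT1, which links mitochondria to motor proteins, and on chromosome 8 (79598895 to 79620565) STMN2, a tubulin-binding protein of neurons. On chromosome 12 (54191555 to 54220565) it lay 2.57 kb from SMUG1, a uracil-DNA glycosylase, and all 5 of its regions were listed in the wild type of the SOX2 set. The chain on chromosome 2 (92017150 to 92041794) was 573 kb from any start, reached 6.08 and 16.0, and had 4 of 5 regions in both CTD deletion libraries. The others had 0 to 2 such regions. Of the 25 regions in these chains 1 was also gained at equal length.

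**Figure D5:**
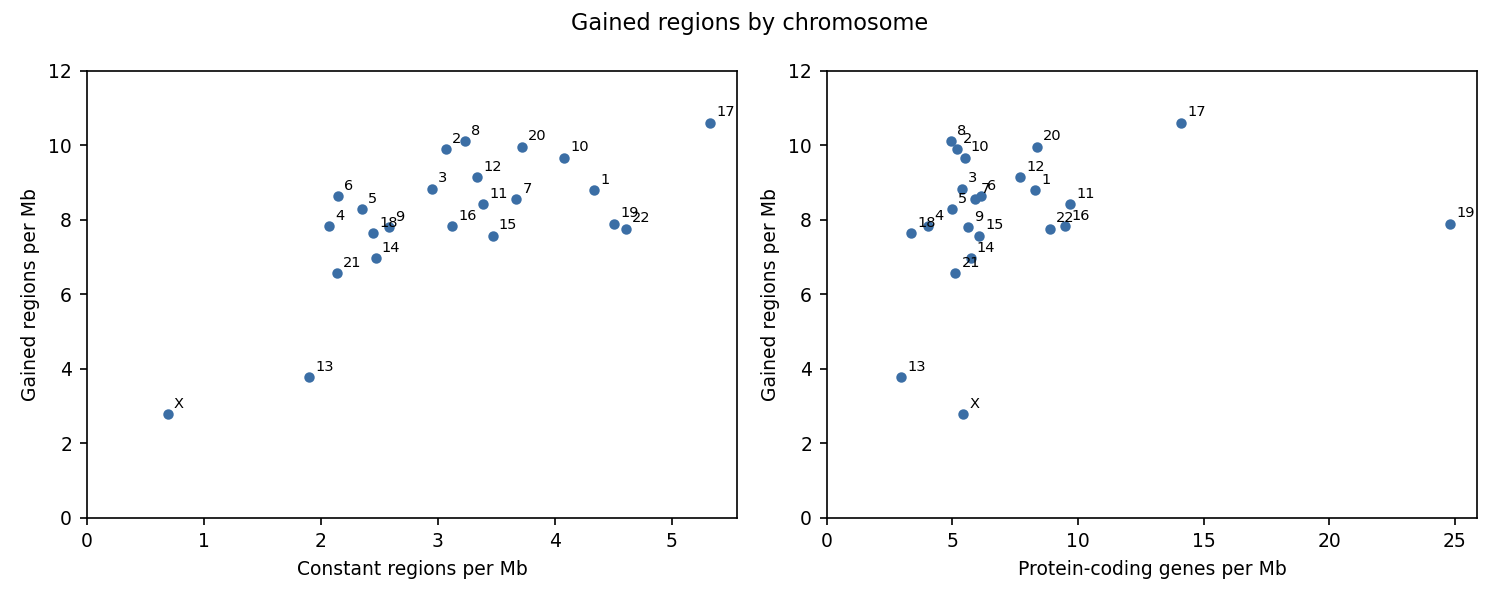
Gained regions per Mb against constant regions per Mb (left) and protein-coding genes per Mb (right), with each point 1 chromosome named beside it. Chromosomes X (2.79 gained per Mb) and 13 (3.78) are lowest and chromosome 17 (10.6) is highest.

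Gained regions were spread over all chromosomes, with X and 13 below the rest. Per Mb of the span up to the end of the last protein-coding gene, chromosomes 17, 8 and 20 had most, with 10.6, 10.1 and 9.96 gained regions. Chromosomes X, 13 and 21 had fewest, with 2.79, 3.78 and 6.56. The same X and 13 were lowest in constant regions, with 0.692 and 1.90 per Mb, and the ratio of gained to constant regions was 4.03 on X and 1.99 on 13. Over all chromosomes this ratio was highest on X and lowest on 22 (1.68) with all peaks, but at equal length it was highest on 6 (1.39) and lowest on 19 (0.382), with X at 0.800. U2OS cells have an abnormal karyotype, and copy number was not measured in these lists. With lists of equal length chromosomes X and 13 were again lowest, with 0.256 and 0.534 gained per Mb, and chromosome 8 was highest with 1.80. The makeup differed as well: on gene-dense chromosome 19, 79.9% of gained regions were listed in the wild type of the SOX2 set and 8.01% lay beyond 50 kb from a start, while on chromosome 4 these shares were 19.1% and 65.3%.

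The genes with the most gained regions within 100 kb of their start lay in gene-dense stretches, and there the second wild type mostly had the same regions. The highest count was 12, at METRN, a secreted neurotrophic factor, and ANTKMT, a mitochondrial lysine methyltransferase. They are part of a run of 9 genes on chromosome 16 from MCRIP2 to CIAO3, with 12 gained regions between 541828 and 840997. All 12 were listed in the wild type of the SOX2 set. Fold enrichments there were 2.90 to 5.20 in replicate 1 and 4.77 to 9.55 in replicate 2. A run of 7 genes on chromosome 19 from SBNO2 to EFNA2, which includes the kinase gene STK11, held 12 gained regions, and all 12 had such an entry. Likewise all 9 regions around NOC2L, KLHL17 and PLEKHN1 on chromosome 1 had one, and 11 of 13 around GET3, DNASE2 and KLF1, the erythroid factor, on chromosome 19.

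The other runs with at least 9 gained regions per gene were AQP3, a water and glycerol channel, with NOL6 on chromosome 9 (5 of 10 regions with an entry), CIRSR with SCRN3 on chromosome 2 (5 of 9), LMBRD1, a gene of lysosomal cobalamin export, on chromosome 6 (2 of 9) and ZFAND6 on chromosome 15. These make 8 runs with 28 genes, and 33 further genes tied at 8 regions and are not named. ZFAND6, a zinc finger protein, was the only one of the 8 runs without any entry in the second wild type. Its 9 gained regions lay between chr15:79967624-79968059 and chr15:80137877-80138300, with fold enrichments of 2.21 to 4.81 and 5.11 to 8.86. Of them 5 were in both CTD deletion libraries, and none was gained at equal length.

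Ranked instead by gained regions without an entry in the second wild type, a rule added after the data were seen, ZFAND6 was first with 9. AP5M1, APOH, ATL1, BRIP1, DKK1, EXOC5, INTS2, LMBRD1, MAP4K5, MNAT1, NRBF2, PRKCA and SIX4 followed with 7 each. Neighbours were not joined into runs here. The windows of AP5M1 and EXOC5, ATL1 and MAP4K5, BRIP1 and INTS2, MNAT1 and SIX4, and APOH and PRKCA overlap. The counts of such neighbours are therefore not separate. DKK1, a secreted inhibitor of Wnt signalling that is active in bone, had 8 gained regions within 100 kb, and 4 of them were also gained at equal length. The one nearest its start, 11.6 kb away (chr10:52301874-52302664), had fold enrichments of 5.37 and 13.6 and was called in both CTD deletion libraries. A second, 41.4 kb away (chr10:52272333-52272922), had 6.96 and 10.2 and was called in CTD deletion replicate 2. APOH, a plasma glycoprotein made by the liver, had 7 gained regions. The strongest was 90.9 kb away (chr17:66320350-66321167), inside PRKCA, with 7.76 and 11.3. The nearest of the 7 lay 2.08 kb from the start (chr17:66231493-66232079) with 4.42 and 6.48, and was the only one within 50 kb.

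For the lists of endoderm and other genes the background is wide: 64.5% of 19974 protein-coding genes had a gained region within 50 kb of their start, 34.3% had one without an entry in the second wild type, and 13.8% had one at equal list length. A constant region lay as near to 51.3%. Over 9 lists with 215 genes in all, 136 had a gained region within 50 kb. Over all protein-coding genes the median was 1.00 gained region per gene. For the 4162 genes without a listed start, the window was laid around both gene ends. Their counts therefore cover a wider stretch, and some of their regions can lie far from the true start. No list can be called particular from these shares, which are a description.

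Hepatic transcription factor genes had a gained region in 13 of 17 cases (76.5%), and in 10 of 17 (58.8%) one without an entry in the second wild type. The median of the list was 1.00 region per gene. NR1H4, the bile acid receptor FXR, had 4 gained regions, none with an entry in any SOX2-set list tested here (wild type and SOX2). They were chr12:100469523-100470000 (fold enrichments 4.42 and 8.18), chr12:100489115-100489578 (3.31 and 6.82), chr12:100504189-100504693 (5.21 and 4.43) and chr12:100523684-100524238 (5.52 and 7.50). CTD deletion replicate 2 had a peak at all 4 and replicate 1 at 3. HNF4G, a nuclear receptor, had 4, of which the one over its end at chr8:75406874-75408195 had an entry in the second wild type. TBX3 had 3, of which chr12:114701083-114701744, 16.9 kb from an end of the gene, was also gained at equal length, with 5.91 and 11.6. HHEX, a homeobox gene of early liver and endoderm, had 1 (chr10:92659807-92660636), with 6.12 and 10.6, also gained at equal length. The genes CEBPA, FOXA1, NR1I2 and PROX1 had none within 50 kb. At equal length 3 of 17 genes (17.6%) had a gained region.

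Of 20 liver plasma protein genes 11 (55.0%) had a gained region within 50 kb, and 5 (25%) one without an entry in the second wild type. The list had a median of 1.00. VTN, vitronectin, had 4, of which 3 had such an entry, and the fourth, 42.9 kb away (chr17:28413252-28413706), had 3.66 and 12.3. TTR, the thyroxine carrier transthyretin, had 2, at 35.5 kb from one end of the gene and 46.1 kb from the other. TF, transferrin, had 2, with fold enrichments of 4.97 and 7.84 at 32.4 kb and of 4.82 and 5.11 over its start. AHSG, fetuin-A, had 2. ALB, albumin, is a textbook FOXA target in liver and had 1, with an entry in the second wild type. The fibrinogen genes FGA, FGB and FGG had none. At equal length 1 of 20 (5.0%) had a gained region.

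Of 14 definitive endoderm genes 7 (50.0%) had a gained region, 2 (14.3%) without an entry in the second wild type, and the median was 0.50. EPCAM, an epithelial adhesion molecule, had 4, all with such an entry. EOMES, a T-box factor of early endoderm, had 3, of which the one 4.45 kb away (chr3:27726769-27727532, 2.76 and 6.48) had none. CDH1, E-cadherin, had 2. GATA4, GATA6, SOX17, CXCR4, GSC, CER1 and FOXA1 had none within 50 kb. Of 16 foregut, pancreas and lung genes 8 (50.0%) had one, 4 (25%) without an entry. SFTPC, surfactant protein C of the lung, had 5, of which 4 had an entry in the second wild type. SOX9 had 2 without an entry, at 34.9 and 40.8 kb from an end of the gene, and CDX2 and NKX6-1 had 2 each. INS, ISL1, MNX1 and RFX6 had none. Of 15 hormone-dependent FOXA targets of breast and prostate 10 (66.7%) had one, 4 (26.7%) without an entry. XBP1, a factor of the unfolded protein response, had 2 without an entry, of which chr22:28787793-28788447, 12.1 kb away, had 4.65 and 12.6, was called in both CTD deletion libraries and was also gained at equal length. GREB1, which has no listed start, had 3, all with an entry. They lay 4.51 kb from one end of the gene and 39.2 and 45.3 kb from the other. MYB and PGR, the progesterone receptor, had 2 each. KLK2, KLK3, TFF1 and TMPRSS2 had none.

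Lists that are not of the endoderm had shares from 41.2% to 85.0%, around the 50.0% to 76.5% of the lists above. AP-1 and TEAD pathway genes had a gained region in 17 of 20 cases (85.0%), 9 (45.0%) without an entry in the second wild type, and 1 (5.0%) at equal length. JUNB, a subunit of AP-1, had 7, of which 6 had an entry, FOSL1 had 4, and FOSB and TEAD1 had 3 each. Lost regions at equal length lay within 50 kb of 4 of these 20 genes (20%), against 7.61% of all genes, and JUN had 2 and AMOTL2 3 of them. Neural progenitor genes had one in 9 of 14 (64.3%), 7 (50.0%) without an entry, with SOX2 at 4, NEUROG1 at 3, and NES and NEUROG2 at 2 each. Osteoblast and mesenchymal genes had one in 7 of 17 (41.2%), 5 (29.4%) without an entry, with SP7, the osteoblast factor osterix, at 3, all with an entry, and COL1A1, FN1 and PRRX1 at 2 each. Of the osteoblast list 4 (23.5%) had a lost region at equal length. Ribosomal protein genes, meant as a housekeeping comparison, were picked by symbol, which also took in like-named genes such as RPL3L and RPL10L. They had one in 55 of 84 (65.5%), 22 (26.2%) without an entry. RPS2 led with 6, all with an entry, and RPL10L, RPL18 and RPL19 had 5 each. Of the 5 at RPL10L, 4 were without an entry.

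Few gained regions overlapped promoters, and those that did were CpG-rich unless the second wild type lacked them. The promoter table used has no entry on chromosome 8, so the gained regions there are not in these shares. Of 34961 RefSeq promoters 2593 overlapped a gained region, with a median GC content of 69.7% and 31.0 CpG, against 64.7% and 26 for the 6746 promoters in constant regions and 58.7% and 14.0 for all promoters. Only 61 of the 2593 had no entry in the wild-type list of the SOX2 set, and these had 39.7% GC and 2.00 CpG, as LINC01992 and LOC105376003 show in the sequences above. A forkhead match (TGTTTAC or TATTTAC, either strand) was present in 3.16% of the 2593, in 3.31% of constant promoters and in 5.97% of all promoters. The same letters read backwards (CATTTGT or CATTTAT), which are no forkhead motif, were present in 2.89%, 2.65% and 7.29%.

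Among the 61 promoters 6, 9.84%, had a forkhead match and 11, 18%, had the backward letters, so that the forkhead letters were not the more frequent ones there. The AP-1 motif TGANTCA was in 24.6% of the 61 and in 7.68% of all promoters, and the SOX motif ACAATG in 29.5% and 10.7%. At equal length 395 promoters overlapped a gained region, of which 20, 5.06%, had a forkhead match and 11, 2.78%, the backward letters. Base composition differs between all of these sets, and its part in the shares was not tested. A match is a description of letters, not of binding. Gained regions away from promoters, which are the large majority, could not be searched, because only promoter sequences were used.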

How the data were processed

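ATAC-seq peak lists of 4 U2OS libraries were compared, with 5 further lists of the series used for reference. The submitters' processing notes name FastQC 0.10.1, Trim Galore, Bowtie2 2.4.4, SAMtools 0.1.18, MACS2, deepTools 2.4.1 and the build hg38. The control, the handling of duplicates and the threshold of each list are not given in the sources used here. The authors called peaks per library in these 4 samples. The deposited fold enrichment is the authors' ratio over the background of the same library. The −log10 p and q values deposited are those of the authors' peak caller, and the deposited score is a rounded multiple of them. The SOX2-set lists have an IDR layout for a pair of inputs, in which the deposited score restates the global IDR, and their entries were used whether or not they passed 0.05, unless said otherwise. The deposited summit positions were used for windows of 200 bp.

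From these, regions were merged, counted and described with python 3.11.15, numpy 2.4.6, pandas 2.3.3 and scipy 1.17.1, after checks on simulated peak lists. Gene positions came from RefSeq (GRCh38.p14). Of 19974 protein-coding genes 15812 had a listed start, and for the other 4162 both gene ends were used. For the count of regions per gene, the most upstream listed start was taken. Depth is unknown, so precision is given only as Wilson 95% intervals for counting error. Regions are not replicates, and the only test was an exact permutation over 2 against 2 libraries. Motifs were searched in promoters of 300 bp because no genome was used here.

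The named regions were the 12 best gained and 6 best lost regions by the lower of both rank percentiles, among those called so with all peaks and at equal length. The named genes were those with the most gained regions within 100 kb of a listed start, and up to 4 members of each list with the most gained regions within 50 kb. Members of lists without a gained region, or chosen for what they are known for, were named after their values were seen. The comparison, members and gene lists were chosen with earlier results of these data known. Alternatives were the list length, a common −log10 p, a minimum cover of 50%, summit windows, single libraries left out and pairs of the same number.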

Additional observations from a re-analysis of the deposited data

How the results depend on the processing

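The number of gained regions moved with the length of the lists and with which libraries were used, and gained regions outnumbered lost ones under each alternative run. Each setting is described by the following values in order: gained regions, lost regions, the share of gained regions within 1 kb of a start, over 50 kb from a start and within 10 kb of another, their median width, the share of their promoters with a forkhead match, and the shares called in CTD deletion replicates 1 and 2 and in the wild type of the SOX2 set. With lists of equal length by −log10 p these were 3845, 2191, 8.19%, 57.1%, 2.70%, 716 bp, 5.06%, 81.6%, 93.4% and 18.5%. With the cut made by fold enrichment these were 3755, 2201, 7.48%, 57.8%, 2.13%, 713 bp, 4.73%, 81.2%, 93.3% and 17.2%. At the common −log10 p these were 12920, 837, 11.1%, 53.5%, 8.61%, 626 bp, 3.39%, 63.4%, 82.6% and 30.0%. When a list had to cover at least 50% of a region these were 21891, 501, 17.0%, 47.3%, 17.2%, 592 bp, 3.37%, 62.9%, 80.7% and 41.1%. With windows of 200 bp around summits these were 19231, 596, 11.4%, 51.1%, 13.7%, 311 bp, 2.84%, 51.7%, 71.9% and 33.5%. With the libraries of replicate number 1 alone these were 146098, 4987, 5.73%, 56.6%, 64.0%, 257 bp, 3.8%, 20.6%, 31.6% and 23%. With those of replicate number 2 alone these were 38392, 5230, 14.0%, 47.3%, 32.7%, 324 bp, 3.34%, 47.1%, 65.8% and 39.4%. Leaving out each library in turn gave 27496 to 136794 gained regions and 858 to 3825 lost, 4.95 to 14.1% within 1 kb of a start, 48.9 to 57.1% over 50 kb away, 19.3 to 61.5% within 10 kb of another and a median width of 248 to 586 bp. A forkhead match was in 3.03 to 3.91% of promoters, the shares in the other lists were 16.7 to 60.3%, 28.1 to 78.1% and 20.4 to 39.4%, and 148 to 212 of the 215 list genes had a gained region within 50 kb. The count of gained regions was 136794 without full-length replicate 2 and at most 35171 without any other library. The count of lost regions was 3265 and 3825 without wild type replicates 1 and 2, and 1171 and 858 without full-length replicates 1 and 2, where fewer lists decide by construction. The 136 list genes with a gained region became 28 at equal length, 85 at the common −log10 p, 61 within 10 kb and 178 within 100 kb. With only genes that have a listed start, an alternative chosen after seeing the data, 9.19% of gained regions lay within 1 kb and 56.9% over 50 kb away. The difference in median peak width, full length minus wild type, was -41.0 bp with all peaks, 214 bp at equal length and 91.0 bp at the common −log10 p, and so changed sign. The share of peaks within 1 kb of a start differed by -15.2, -1.30 and -9.71 percentage points, and the share of promoters with a forkhead match by 0.145, -0.0353 and 0.0566, which changed sign at equal length. Shares in other lists under these settings, and cutting those lists as well, were also chosen after seeing the data. The alternative with motifs in summit windows was run on promoters only. The cause of the other shifts was not tested.

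With the replicate number as a block, added after seeing the data, the mean differences between whole lists within pairs were the same by construction, -15.2 percentage points for peaks near a start, -41.0 bp for width and 0.145 percentage points for forkhead matches. The differences in width were -105 bp in pair 1 and 23 bp in pair 2 with whole lists, and 270 and 158 bp at equal length. The share near a start differed by -24.2 and -6.16 percentage points with whole lists and by -5.21 and 2.61 at equal length. With 2 pairs an exact sign permutation cannot go below p = 0.50. The numbers are not known to pair the samples. Counts of gained and lost regions come from no test and were not blocked. Read depth is unknown, so the lists do not show how open a region without a peak was.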
